A study of Mus musculus with 71 samples.

Results

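The potassium channel genes of the mouse are the genes whose symbols begin with Kcn. They were taken by symbol, as every gene of the form Kcn, further letters and a number, with Kcnj8 and Kcnj13 left out because they mark pericytes and choroid plexus. This gave 90 genes of 55416 gene identifiers in the count table, 75 that encode pore-forming subunits and 15 that encode auxiliary subunits. The RNA came from the brains of C57BL/6J mice that had been burned, had skin excised or had a sham procedure, in a study of brain gene expression following non-severe burn injury. All animals were anaesthetised with isoflurane, were shaved, received buprenorphine at 0.1 mg/kg and had paracetamol at 1 mg/mL in the drinking water for 5 days. The burn came from a brass rod 19 mm across at over 90 °C, held on the right flank for 10 s. Excision removed full-thickness skin from the back around a 12 mm template, and the sham procedure left the shaved back uninjured. The labels used here give no age, sex or time between injury and tissue collection. Hippocampus was sampled in 10 burn, 10 excision and 9 sham libraries, frontal cortex in 10, 10 and 8, and piriform cortex in 5, 4 and 5. The labels give the sample as mixed brain tissue, in which fewer cells of a type and less RNA per cell cannot be told apart.

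Potassium channels set the resting potential, end the action potential and space out repeated firing, and most neurons express many of them at once. Voltage-gated members (Kcna, Kcnb, Kcnc, Kcnd, Kcnh and Kcnq) open on depolarisation, and the electrically silent subunits (Kcnf, Kcng, Kcns and Kcnv) make no channel alone but change the behaviour of Kcnb subunits. Large and small conductance channels (Kcnma, Kcnt and Kcnn) respond to calcium or sodium, their relative Kcnu1 to alkaline pH, inward rectifiers (Kcnj) and the leak channels of the Kcnk family hold the membrane near rest, and Kcnab, Kcne, Kcnip and Kcnmb genes encode partners that set the gating or surface level of pore-forming subunits. In astrocytes, Kcnj10 and Kcnj16 form the channel that takes up potassium released by neurons.

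Depth was lowest in batch 1 of the hippocampus, at 6.65 to 34.1 M counts per library (M, mega). It was 30.7 to 70.7 M in batch 2 of the hippocampus, 47.4 to 87.8 M in the frontal cortex, which has the same 2 batches, and 46.8 to 76.4 M in the piriform cortex, which is batch 3. Title and treatment field disagreed for 4 libraries, and the field was used here: frontal cortex burn replicates 7 and 8, frontal cortex excision replicate 7 and piriform cortex sham replicate 2. Those of the frontal cortex are all in batch 2. All 14 piriform cortex libraries have titles that name the frontal cortex, and their region was taken from the tissue field. That field was not checked against markers of the piriform cortex, so every piriform value rests on it. Nothing in the labels says that libraries of a group came from separate animals, so p-values measure the spread between these libraries, which may be technical. Choroid plexus markers varied widely between hippocampal libraries. Their summed level over 8 genes ran from 125 to 6701 CPM (counts scaled to a common library size by TMM) in hippocampal sham libraries (median 261), from 143 to 8793 CPM in hippocampal burn libraries (median 2184) and from 134 to 3902 CPM after excision (median 173), while it stayed between 146 and 252 CPM in the frontal cortex. None of the 8 genes was at 0 in any group.

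The potassium channel genes together held a median of 0.483% of counts in the hippocampus (range 0.42 to 0.516%), 0.549% in the frontal cortex (0.504 to 0.631%) and 0.608% in the piriform cortex (0.52 to 0.707%). In sham libraries 69 of the 90 had a mean of at least 1 CPM in every region, and 18 stayed under 1 CPM in all 3 regions. Per kilobase of exon, which allows levels of different genes to be compared, Kcnab2 was at the top in the hippocampus (143 CPM per kb) and piriform cortex (117 CPM per kb). Kcnab2 encodes the auxiliary beta subunit of Kcna channels, and its exons overlap those of Gm16334 on the same strand. In the frontal cortex Kcnj4, an inward rectifier of forebrain neurons, came before it, at 97.2 against 87.3 CPM per kb. Of the 10 members with the highest level per kb in each region, 8 were shared by all 3 regions.

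Most subfamilies had the same leading member in every region. Kcna2 led the Kcna genes at 13.0, 16.7 and 22.0 CPM per kb in hippocampus, frontal cortex and piriform cortex. Kcnd2 (13.1, 17.0 and 11.1 CPM per kb), Kcnh3 (24.0, 44.6 and 48.02), Kcnk1 (34.2, 40.1 and 43.9), Kcnf1 among the silent subunits (19.7, 50.4 and 27.9) and Kcnn1 (4.99, 4.25 and 5.08) each led their group in all 3. The lead changed between regions in the groups that follow. Kcnip2, a partner of Kcnd channels, led in the hippocampus and piriform cortex (53.5 and 58.1 CPM per kb) and Kcnip3 in the frontal cortex (49.7). Kcnma1 led the Kcnma, Kcnt and Kcnu genes in the hippocampus (10.4) and Kcnt1 in the other two (12.8 and 21.3). Levels of the Kcnmb group, whose leading member was Kcnmb4, did not pass 1.83 CPM per kb in any region.

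**Figure D1:**
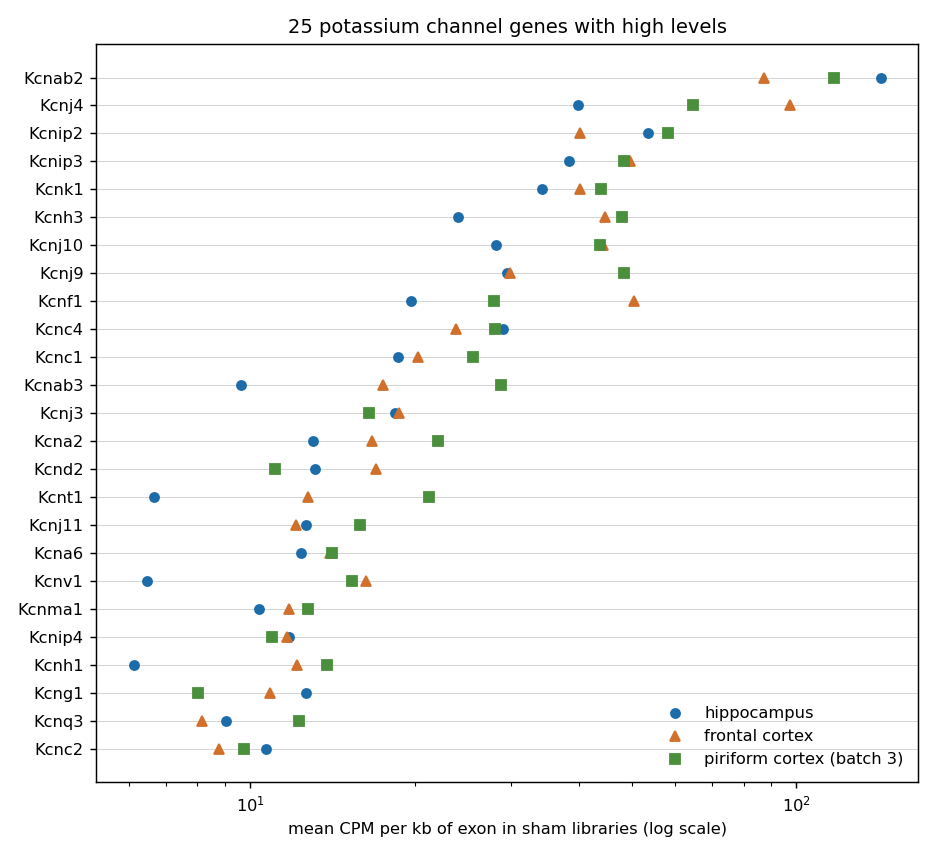
Mean level in sham libraries, in CPM per kb of exon on a log axis, of 25 potassium channel genes with a high average over the 3 regions, with 1 symbol per region. Kcnab2 lies at the top with 143, 87.3 and 117 CPM per kb, and Kcnf1 and Kcnj4 lie farther right in the frontal cortex than in the hippocampus.

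In sham libraries more potassium channel genes were called lower in the hippocampus than higher. Of 79 members that passed the count filter, tested with edgeR's quasi-likelihood test and batch as a term, 50 were called at a Benjamini-Hochberg adjusted p under 0.05, against 41% of all 19336 genes tested. Lower in the hippocampus were 38 members (20.1% of all genes were called in that direction), and higher were 12 (20.8% of all genes). The 12 include Kcne2 and Kcne3, which passed the count filter through hippocampal libraries alone, so their calls are no evidence of a difference. At an unadjusted p under 0.05 there were 55 of 79, against 48.1% of all genes. By sign alone, 58 of the 79 log2 differences were below 0 and 21 above. The median log2 difference was -0.37 for the members and -0.0016 for all genes. All 50 kept their sign when burn libraries replaced the sham libraries, 40 of them called. With excision libraries 49 of the 50 were tested, 47 kept their sign and 37 were called, and 34 were called with the same sign in sham, burn and excision libraries alike. In 23 of the 79 the library ranges of the 2 regions did not overlap, against 14% of all genes tested.

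The Kcnh genes, which encode channels of the ether-a-go-go, erg and elk types, were lower throughout. All 8 were lower in the hippocampus and called, with log2 differences from -2.61 to -0.91. Kcnh5 lay between 0.486 and 2.73 CPM in the 9 hippocampal sham libraries (median 1.91) and between 8.74 and 12.3 CPM in the 8 frontal ones (median 10.9). The 2 ranges were far apart, and the log2 difference was -2.61 ± 0.20 (SE, adjusted p = 3.18e-09). Kcnh4 differed by -2.07 ± 0.27 (adjusted p = 3.15e-06), Kcnh7 by -1.47 ± 0.18 (adjusted p = 2.16e-06) and Kcnh6 by -1.40 ± 0.15 (adjusted p = 2.9e-07). Exons of Kcnh7 overlap Gca on the opposite strand, and the use of strand in the counting is not known.

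Among the Kcna genes 4 of 6 tested were called, all lower in the hippocampus. Kcna5 ran from 1.237 to 2.99 CPM in hippocampal sham libraries (median 1.47) and from 8.25 to 19.9 CPM in frontal ones (median 13.0), with no overlap and a log2 difference of -2.82 ± 0.23 (adjusted p = 4.89e-09). Kcna3, better known from lymphocytes, differed by -1.78 ± 0.35 (adjusted p = 0.000387). Kcnb2, a delayed rectifier subunit, differed by -1.21 ± 0.14 (adjusted p = 1.21e-06). Of 11 Kcnj genes 5 were called, all lower: Kcnj4 lay between 70.8 and 113 CPM in the hippocampus and between 179 and 254 CPM in the frontal cortex, a log2 difference of -1.32 ± 0.09 (adjusted p = 5.98e-10), and Kcnj12 differed by -1.31 ± 0.15. Of 10 Kcnk genes 7 were called, again all lower.

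The silent subunits went both ways. Kcnf1 lay between 67.4 and 147 CPM in hippocampal sham libraries and between 191 and 298 CPM in frontal ones (log2 difference -1.44 ± 0.12, adjusted p = 5.07e-09), and Kcnv1 differed by -1.43 ± 0.14 (adjusted p = 9.49e-08). Kcng2 went the other way, from 16.9 to 40.0 CPM in the hippocampus and from 4.74 to 8.41 CPM in the frontal cortex, a log2 difference of 2.11 ± 0.10 (adjusted p = 2.8e-12). An exon of Kcng2 overlaps D330025C20Rik on the opposite strand, and whether the counting used strand is not given in the sources used here. Kcns3 was also higher in the hippocampus, at 7.43 to 10.0 CPM against 2.97 to 4.24 CPM (log2 difference 1.20 ± 0.10, adjusted p = 3.7e-09).

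Auxiliary subunits also lay on both sides. Called higher and lower in the hippocampus were 1 and 1 Kcnab genes, 1 and 2 Kcnip genes and 1 and 0 Kcnmb genes. For the Kcne genes it was 2 and 1, where the 2 are Kcne2 and Kcne3. Kcnab2 was higher in the hippocampus by 0.74 ± 0.08 on the log2 scale (adjusted p = 5.34e-07) and Kcnmb4, the neuronal partner of the large conductance channel, by 0.59 ± 0.14 (adjusted p = 0.00238). Exons of Kcnmb4 overlap 2 genes on the opposite strand, among them Kcnmb4os2, so the limit given for Kcng2 holds here too. Kcnip2 was higher by 0.44 ± 0.08 (adjusted p = 0.000144), while Kcnip1 was lower, with a log2 difference of -1.16 ± 0.09 (adjusted p = 4.22e-09). Kcnn2, a small conductance channel of the pyramidal cell afterpotential, was higher by 0.39 ± 0.06 (adjusted p = 1.37e-05). Kcnc4 and Kcnn1 were called with smaller differences of 0.32 and 0.27, and each lost its call in batch 1 alone and in burn libraries. Kcnc4 had a difference of -0.0145 when excision libraries replaced the sham libraries, and Kcnmb4 was not called in excision libraries (0.35, adjusted p = 0.0967) or in batch 1 alone (0.45, adjusted p = 0.126).

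**Figure D2:**
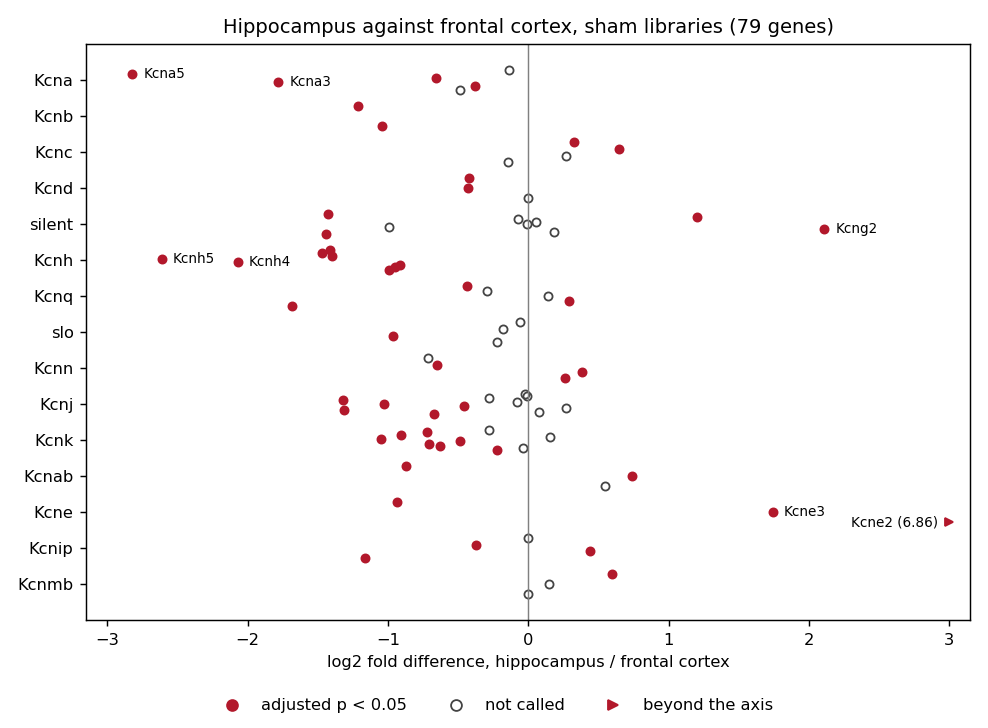
Log2 difference of each of 79 potassium channel genes between hippocampus and frontal cortex in sham libraries, by subfamily, with filled red symbols at an adjusted p under 0.05 and Kcne2 drawn at the edge because it lies beyond the axis. The 8 Kcnh genes all lie left of 0, and the silent subunits lie on both sides. Kcne2 and Kcne3 passed the count filter through hippocampal libraries alone.

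Kcne2, an auxiliary subunit that the choroid plexus epithelium expresses strongly, varied widely between hippocampal libraries. In hippocampal sham libraries it ran from 0.177 to 28.9 CPM (median 1.12), after burn from 0.367 to 39.4 CPM (median 8.98) and after excision from 0 to 14.8 CPM (median 0.306), and in the frontal cortex no library passed 0.2 CPM. The hippocampal libraries fell into 2 sets. In 13 libraries Kcne2 was above 5 CPM and the choroid plexus sum lay between 1247 and 8793 CPM, and in the other 16 Kcne2 was at most 1.85 CPM and the sum lay between 125 and 420 CPM. The 13 were 3 of 9 sham, 6 of 10 burn and 4 of 10 excision libraries. Kcne2 and Kcne3 reached the 0.253 CPM of the count filter in no frontal sham library. Both were thus tested between regions through their hippocampal libraries alone, so their calls are no evidence of a difference, and Kcne2 passed that filter in 9 of 17 fits with a library left out. The fitted log2 difference of Kcne2 was 6.86. Kcnk15 did not pass the filter, with sham means of 0.0206 CPM in the hippocampus and 3.02 CPM in the frontal cortex. The part of choroid plexus tissue in the Kcne2 values was not tested.

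Levels in the piriform cortex are set beside the others without a test, since region and batch cannot be told apart there. Of 72 members at 1 CPM or more in some region, 32 had their highest sham mean in the piriform cortex, 27 in the frontal cortex and 13 in the hippocampus. In 11 of the 72 the libraries of the highest region lay apart from those of the next region, against 9.99% of all 16691 genes at that level: 5 in the piriform cortex, 5 in the frontal cortex and 1 in the hippocampus. In the others the top 2 regions overlapped. The members given here as examples were chosen after their values were seen. Kcns1, a silent subunit, lay between 28.9 and 62.6 CPM in piriform sham libraries, 12.3 to 21.5 CPM in the hippocampus and 9.32 to 21.6 CPM in the frontal cortex, so that hippocampus and frontal cortex overlapped. Kcnj9, a subunit of the channels opened by G protein-coupled receptors, lay between 169 and 284 CPM in the piriform cortex and at most at 168 CPM elsewhere. Kcnn2 was the member that stood apart in the hippocampus, at 29.2 to 35.3 CPM against 23.0 to 27.6 CPM in the frontal cortex and 19.5 to 26.6 CPM in the piriform cortex.

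Kcna4 was the only potassium channel gene that edgeR called after burn in any region with all libraries and the batch term. It encodes a Kcna subunit of axons and presynaptic terminals whose current inactivates within milliseconds of opening. The gene lies on chromosome 2 at 107290639 to 107298502 on the plus strand (GRCm38). Its rise in the hippocampus was known from an earlier look at these data and is given as a description. In batch 1 of the hippocampus, Kcna4 was at 19.6, 22.8, 23.6, 27.1 and 27.5 CPM in the 5 burn libraries and at 13.5, 15.1, 18.1 and 18.8 CPM in the 4 sham libraries. Every burn library of that batch lay above every sham library. In batch 2 it was at 20.1, 22.7, 26.5, 29.2 and 30.7 CPM after burn and at 12.2, 16.4, 19.4, 19.6 and 22.4 CPM in sham, where the ranges overlapped in 1 burn library under the highest sham library. Means were 24.99 ± 3.77 CPM (SD, n = 10) after burn and 17.3 ± 3.28 CPM (SD, n = 9) in sham, a 1.45-fold difference or 0.54 ± 0.12 on the log2 scale (edgeR, adjusted p = 0.0293). The log2 fold change was 0.53 in batch 1 alone (adjusted p = 0.0249) and 0.51 in batch 2 alone (adjusted p = 0.467).

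The mean of the excision libraries lay between those of the other groups, while their range overlapped both. In batch 1 Kcna4 was at 12.9, 15.9, 16.7, 19.2 and 19.6 CPM after excision, from just under to just above the sham range, and in batch 2 at 16.5, 18.9, 23.1, 24.1 and 32.0 CPM. The mean was 19.9 ± 5.39 CPM (SD, n = 10). Against sham the log2 fold change was 0.21 ± 0.12 (adjusted p = 0.852), and burn against excision gave 0.33 ± 0.12 (adjusted p = 0.209), with 0.50 in batch 1 and 0.16 in batch 2.

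The hippocampal call for Kcna4 lay near the threshold. With each of 29 libraries left out in turn, the log2 fold change stayed between 0.47 and 0.58 and the adjusted p between 0.0154 and 0.0708, and the call was lost in 9 of 29: without sham replicates 2, 3, 5, 7 or 8, or without burn replicates 2, 3, 4 or 6. Counts in TEC gene models, a class that GENCODE holds as awaiting experimental proof, made up 0.0498% of counts in burn and 0.0694% in sham libraries of hippocampus batch 1, and with that share as a covariate the log2 fold change was 0.50 (adjusted p = 0.151). The summed neuron markers lay between 4062 and 4842 CPM in the batch 1 burn libraries and between 3819 and 4355 CPM in the sham libraries (medians 4521 and 4153). In batch 2 they lay between 4305 and 4977 CPM after burn and between 4500 and 5146 CPM in sham (medians 4676 and 4807). The choroid plexus sum had a higher median after burn than in sham in both batches, at 2268 against 340 CPM and 2099 against 182 CPM. The part of either tissue in the Kcna4 difference was not tested.

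Kcna4 was not called in either cortical region. Frontal cortex means were 26.7 ± 6.73 CPM (SD, n = 10) after burn, 23.8 ± 8.35 CPM (SD, n = 10) after excision and 26.7 ± 3.53 CPM (SD, n = 8) in sham, with a log2 fold change of -0.042 ± 0.16 for burn against sham (adjusted p = 0.942). Its piriform cortex means were 14.8 ± 3.14 CPM (SD, n = 5), 16.0 ± 0.783 CPM (SD, n = 4) and 14.7 ± 5.27 CPM (SD, n = 5) in the same order, with a log2 fold change of 0.0093 ± 0.20 (adjusted p = 0.994). The sign of both cortical values turned when single libraries were left out, that of the piriform value also with the way disagreeing labels were handled, and that of the frontal value also in batch 2 alone. In sham libraries Kcna4 was lower in the hippocampus than in the frontal cortex, with a log2 difference of -0.66 ± 0.12 (adjusted p = 0.000133), while in burn libraries the difference was -0.11 (adjusted p = 0.477) and in excision libraries -0.27 (adjusted p = 0.193). The burn effect in the hippocampus minus that in the frontal cortex was 0.56 ± 0.21 (adjusted p = 0.422), so the regional difference of the effect was not called.

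**Figure D3:**
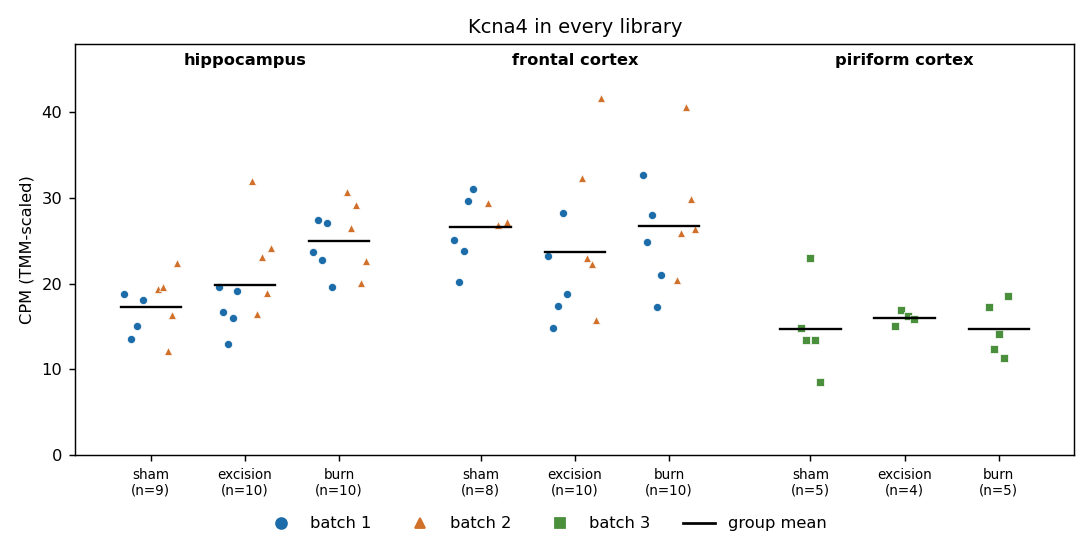
Kcna4 level in CPM in each library by region and treatment, with symbols for the batches and a black line at the group mean. Hippocampal burn libraries lie between 19.6 and 30.7 CPM and sham libraries between 12.2 and 22.4 CPM, while the groups of the frontal and piriform cortex overlap throughout.

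The start region of Kcna4 is shown because it is the called member, beside that of Kcna2, a related axonal subunit that comes up again in the frontal cortex. Each is 300 bases from RefSeq (GRCm38.p6, plus strand), 250 before and 50 after the annotated start, with GC boxes (GGGCGG on either strand) in capitals. The RefSeq starts are 107290589 for Kcna4 and 107101567 for Kcna2, while the GENCODE genes start at 107290639 and 107101146. The Kcna4 window thus ends before the GENCODE gene, and the Kcna2 window lies inside it. Sequences of this kind were at hand for 65 of the 90 members.
Kcna4, chr2:107290339-107290638: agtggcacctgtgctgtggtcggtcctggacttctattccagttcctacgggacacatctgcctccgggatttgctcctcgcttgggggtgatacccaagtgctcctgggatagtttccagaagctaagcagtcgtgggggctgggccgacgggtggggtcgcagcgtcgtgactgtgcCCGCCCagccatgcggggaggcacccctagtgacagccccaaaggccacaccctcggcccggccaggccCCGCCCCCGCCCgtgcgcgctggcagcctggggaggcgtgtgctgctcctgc
Kcna2, chr3:107101317-107101616: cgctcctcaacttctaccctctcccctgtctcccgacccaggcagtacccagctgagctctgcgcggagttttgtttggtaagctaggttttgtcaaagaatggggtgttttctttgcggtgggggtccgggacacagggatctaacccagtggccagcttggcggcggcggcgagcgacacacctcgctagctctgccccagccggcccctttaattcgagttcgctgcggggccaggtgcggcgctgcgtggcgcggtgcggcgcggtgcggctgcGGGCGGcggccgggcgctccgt
Kcna4 holds 3 matches to the GC box and Kcna2 holds 1, with overlapping matches counted separately, and the G and C content is 67.7% and 66.7%. A GC box was found in 35.7% of all 32851 start regions of this length and in 48.9% of the 90 sequences that belong to potassium channel genes. TATAAA was found in 13.6% of all and 4.44% of theirs, CCAAT in 37.4% and 30.0%, and TGACGTCA, the cyclic AMP response element, in 1.79% and 0%. None of these 3 other motifs is in the Kcna4 or Kcna2 window.

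Kcna4 aside, no potassium channel gene was called in the hippocampus. For burn against sham 1 of 79 members was called, against 1.03% of all genes in edgeR. DESeq2 also called 1, Kcna4, against 3.87% of the 17294 genes to which it gave an adjusted p. In edgeR 9 of 79 had an unadjusted p under 0.05, against 17.7% of all genes. The median log2 fold change was 0.019 for the members and 0.012 for all genes. Among the smallest p-values behind Kcna4 were those of Kcnip2 (-0.20 ± 0.07, adjusted p = 0.158), Kcnj3 (0.19 ± 0.07, adjusted p = 0.173) and Kcnj4 (0.22 ± 0.09, adjusted p = 0.21). In batch 1 alone 2 members were called, against 7.09% of all genes: Kcna4 and Kcnv1 (0.42, adjusted p = 0.05 after rounding). Kcnv1 lay between 27.3 and 34.5 CPM in the batch 1 burn libraries and between 20.96 and 24.1 CPM in sham, without overlap. In batch 2 it lay between 30.2 and 43.1 CPM after burn and between 30.3 and 45.0 CPM in sham, which overlapped.

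Excision against sham in the hippocampus gave 0 of 79 members called in edgeR and 0 in DESeq2, against 0% of all genes in either, and 5 members under an unadjusted p of 0.05, against 3.71% of all genes. The smallest p belonged to Kcnh5 (0.66 ± 0.23, adjusted p = 0.852), which was 5.77 CPM in excision replicate 6 and at most 3.02 CPM in the other excision libraries. Burn against excision also gave 0 of 79 in both tools, against 0.209% of all genes in edgeR and 1.58% in DESeq2, with 10 members under an unadjusted p of 0.05 against 14.3%. The smallest p there belonged to Kcnj14 (0.31 ± 0.10, adjusted p = 0.175), followed by Kcna4 and Kcnj4.

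In the frontal cortex no potassium channel gene was called for burn against sham with edgeR (0 of 81, against 0.28% of all genes). DESeq2 called 2, Kcnip2 and Kcnh1, against 2.04% of all genes, as did edgeR without burn replicate 6 (adjusted p = 0.0498 and 0.0486), and 15 of 81 had an unadjusted edgeR p under 0.05, against 13% of all genes. The median log2 fold change was 0.048 for the members and -0.016 for all genes. Kcnip2 had the smallest p. Across both batches it ran from 104 to 133 CPM in the 10 burn libraries (mean 116 ± 10.6 CPM, SD), from 114 to 151 CPM after excision and from 122 to 167 CPM in the 8 sham libraries. The log2 fold change was -0.28 ± 0.07 (adjusted p = 0.0902), with -0.40 in batch 1 and -0.093 in batch 2, and -0.28 (adjusted p = 0.136) without the libraries whose labels disagree. Kcnh1 had 0.26 ± 0.07 (adjusted p = 0.122) with 0.25 and 0.29 in the 2 batches, Kcnj11, the pore of the ATP-sensitive channel, had 0.28 ± 0.09 (adjusted p = 0.157), Kcna2 had 0.25 ± 0.08 (adjusted p = 0.164) and Kcnk13 had -0.41 ± 0.14 (adjusted p = 0.167).

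**Figure D4:**
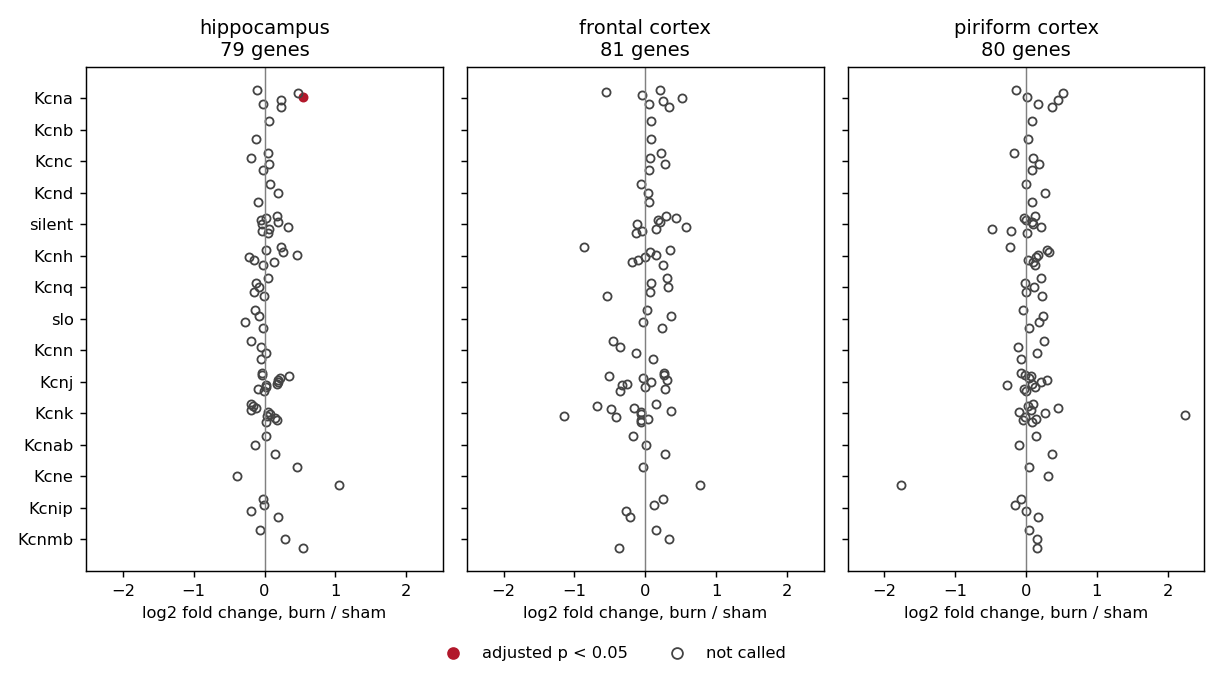
Log2 fold change of burn against sham for each potassium channel gene tested, by subfamily, in hippocampus (79 genes), frontal cortex (81) and piriform cortex (80), with filled red symbols at an adjusted p under 0.05. Kcna4 in the hippocampus is the 1 filled symbol, and the points beyond 1 on either side are Kcne2 and Kcnk15, both counted at low or uneven levels.

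Within batch 1 of the frontal cortex the burn libraries stood apart for several members. In that batch alone 9 members were called for burn against sham, against 6.5% of all genes, 7 higher and 2 lower after burn, and for 6 of the 9 the 5 burn and 5 sham libraries did not overlap, against 78.5% of all genes called there. Over all members tested in that batch, 17 of 79 did not overlap, against 12.4% of all genes. Kcnv1, a silent subunit of the cortex, was at 109, 121, 124, 132 and 134 CPM after burn and at 48.5, 79.2, 81.3, 81.5 and 84.8 CPM in sham. In batch 2 it was at 54.0, 55.7, 60.8, 65.6 and 71.0 CPM after burn and at 58.5, 76.5 and 86.3 CPM in sham. The 5 batch 1 burn libraries were thus above every other frontal cortex library of the study, and the batch 2 burn libraries were within or under the sham range. The log2 fold change was 0.72 ± 0.16 in batch 1 (adjusted p = 0.0238) and -0.26 ± 0.15 in batch 2 (adjusted p = 0.819).

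Kcna2 had the same layout, at 242, 268, 279, 289 and 294 CPM in the batch 1 burn libraries and 160, 209, 212, 213 and 215 CPM in the sham libraries of that batch. In batch 2 it was at 171 to 221 CPM after burn and 167 to 218 CPM in sham. Its log2 fold change was 0.43 ± 0.09 in batch 1 (adjusted p = 0.0233) and 0.034 ± 0.11 in batch 2. Kcnc2, a fast-gating channel of interneurons, lay between 79.4 and 105 CPM after burn and between 40.0 and 70.1 CPM in sham in batch 1, and Kcnq5, a subunit of the M-current that restrains repeated firing, between 103 and 133 CPM and between 64.3 and 101 CPM. Kcnip2 was lower in batch 1, at 104 to 122 CPM after burn against 128 to 167 CPM in sham. The other members called in batch 1 were Kcns3 (0.64), Kcnmb2 (0.64) and Kcnj6 (0.57), all higher, and Kcna5 (-1.03), lower. In batch 2 none of the 9 was called or stood apart, and 4 of 9 had the same sign. The batch 2 burn libraries include replicates 7 and 8, whose titles name sham. Batch 2 was not fitted alone without them.

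Marker sums of batch 1 also differed between burn and sham, in both directions. In batch 1 the neuron markers summed to between 6411 and 7365 CPM after burn and between 4492 and 5796 CPM in sham, and the cortical projection neuron markers to between 464 and 529 CPM and between 304 and 422 CPM, neither overlapping. In batch 2 the neuron sums were 5478 to 5972 CPM after burn and 5012 to 5671 CPM in sham, and the cortical projection neuron sums 306 to 416 CPM and 332 to 387 CPM. In batch 1 the choroid plexus sums also did not overlap, at 212 to 252 CPM after burn and 167 to 207 CPM in sham. Both ranges lie within the 125 to 420 CPM of the hippocampal libraries with Kcne2 at 5 CPM or less. Ttr, a marker in that list, had a median of 0.401 CPM in the frontal cortex, so the sums there are no measure of choroid plexus tissue. The sums of fast-spiking interneuron markers were lower after burn, at 432 to 581 CPM (median 455) against 547 to 726 CPM (median 593). That list includes Gad1, with a median of 442 CPM over all frontal cortex libraries, where Pvalb had 28 CPM. Oligodendrocyte precursor markers had median sums of 221 CPM after burn and 277 CPM in sham. All markers of the neuron and cortical projection neuron lists were detected in every group, and the part of tissue make-up in the batch 1 differences was not tested.

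The difference of the burn effect between frontal cortex batches was tested as an interaction. It was called for 0 of 81 members in edgeR, against 0% of all genes, and 16 of 81 had an unadjusted p under 0.05, against 18.4% of all genes. Kcnv1 had the smallest p among the members, with an effect in batch 2 minus batch 1 of -1.0 ± 0.23 (adjusted p = 0.151). DESeq2 called it as the 1 member, against 2.14% of the 12537 genes to which it gave an adjusted p, where 22627 genes were tested. Kcnj4 followed at 0.50 ± 0.15 (adjusted p = 0.164), then Kcnc2 at -0.66 ± 0.22, Kcnh7 at -1.06 ± 0.35 and Kcna2 at -0.42 ± 0.14 (each adjusted p = 0.179). This interaction was not fitted without the batch 2 libraries whose labels disagree. The same test in the hippocampus called 0 of 79 members in either tool, against 0.0585% of all genes in edgeR and 1.74% in DESeq2, with 5 members under an unadjusted p of 0.05 against 16.2%, and Kcnv1 again had the smallest p (-0.49 ± 0.18, adjusted p = 0.179).

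**Figure D5:**
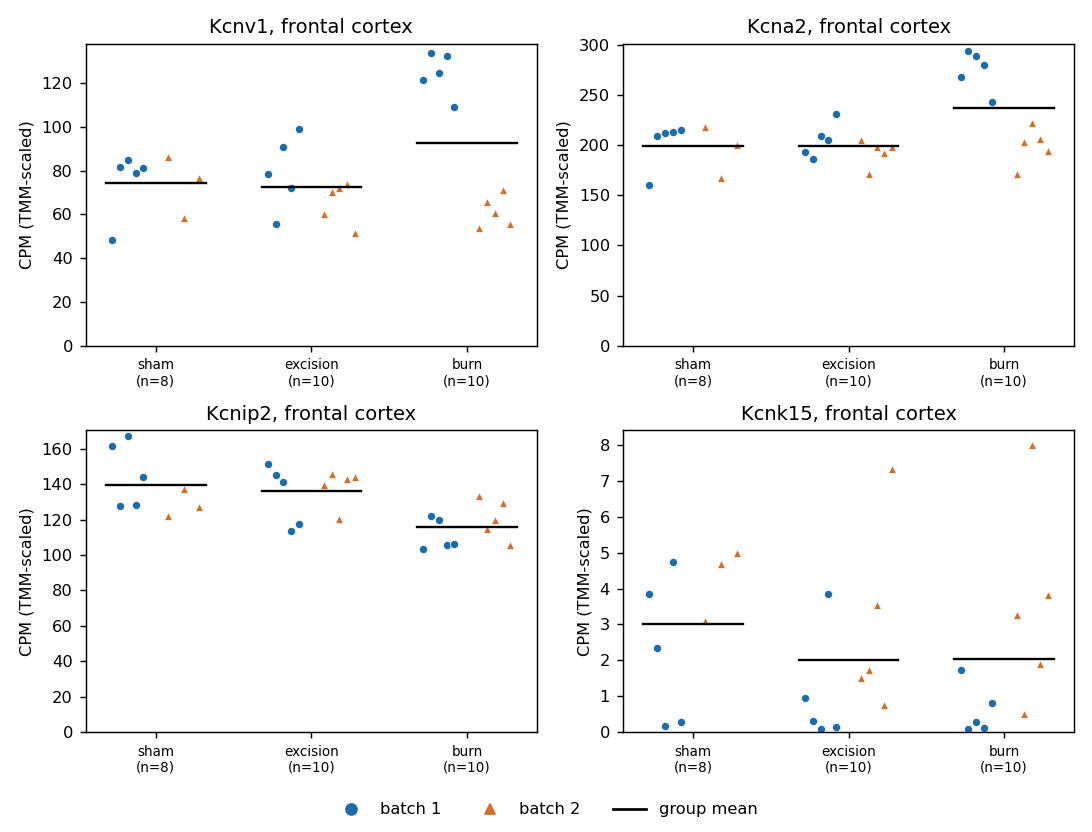
Levels of Kcnv1, Kcna2, Kcnip2 and Kcnk15 in CPM in each frontal cortex library, by treatment and batch, with a black line at the group mean. The 5 batch 1 burn libraries lie above the others for Kcnv1 (109 to 134 CPM) and Kcna2 (242 to 294 CPM), and Kcnk15 varies widely within every treatment.

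Burn against excision in the frontal cortex gave 0 of 81 members in both tools, against 0.209% of all genes in edgeR and 0.921% in DESeq2, and 12 members under an unadjusted p of 0.05, against 11.6%. The smallest p belonged to Kcng1, a silent subunit, at -0.40 ± 0.11 (adjusted p = 0.172), followed by Kcnip2 (-0.22 ± 0.07), Kcna2 (0.24 ± 0.08), Kcnj3 (0.42 ± 0.15) and Kcnma1 (0.22 ± 0.08). Without burn replicate 6, Kcng1 (-0.46, adjusted p = 0.0357) and Kcna2 (0.28, adjusted p = 0.0477) were called, and without excision replicate 10 Kcng1 was (-0.47, adjusted p = 0.0222). In batch 1 alone 8 members were called, against 6.45% of all genes, and the libraries did not overlap for 6 of them, against 75.8% of all genes called there. Over all members tested in that batch, 11 of 79 did not overlap, against 11% of all genes. Kcnh5 (0.93), Kcnv1 (0.64), Kcnj6 (0.55), Kcna2 (0.42) and Kcns2 (0.36) were higher after burn than after excision and Kcnh4 (-0.57), Kcng1 (-0.56) and Kcnt1 (-0.53) lower, and in batch 2 none was called. The batch 2 libraries include burn replicates 7 and 8 and excision replicate 7, whose titles name another treatment.

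Excision against sham in the frontal cortex called 0 of 81 members with either tool, against 0% of all genes in each, with 8 members under an unadjusted p of 0.05 against 4.78%. The 2 smallest p-values belonged to the pair of glial inward rectifiers. Kcnj10 ran from 130 to 288 CPM after excision (median 169) and from 171 to 296 CPM in sham (median 235), a log2 fold change of -0.47 ± 0.12 (unadjusted p = 0.000629, adjusted p = 0.806). Kcnj16 ran from 15.4 to 31.0 CPM and from 20.8 to 41.6 CPM, with -0.52 ± 0.15 (adjusted p = 0.806). For both genes the groups overlapped, and both batches gave the same sign (-0.48 and -0.44 for Kcnj10, -0.46 and -0.59 for Kcnj16). The 7 astrocyte markers summed to between 1952 and 4028 CPM after excision (median 2691) and between 2489 and 4529 CPM in sham (median 3088), and their part was not tested.

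Kcnk15, a subunit of the leak channel family, varied widely between frontal cortex libraries, and it is named here because of that spread. It ran from 0.16 to 4.99 CPM in sham (median 3.48), from 0.0833 to 8.01 CPM after burn (median 1.27) and from 0.0991 to 7.34 CPM after excision (median 1.23), with full overlap. In hippocampal sham libraries it did not pass 0.0498 CPM, and in piriform sham libraries it did not pass 0.0948 CPM. After burn it lay between 0.224 and 0.433 CPM in the piriform cortex, above the 0.0416 to 0.0948 CPM of sham, with a log2 fold change of 2.25 ± 0.58 (adjusted p = 0.884). Every burn library and no sham library there reached the minimum of the count filter, so these values are no evidence of a difference.

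In the piriform cortex no potassium channel gene was called in any contrast by edgeR or DESeq2 (0 of 80 each), against 0% of all genes in edgeR. In DESeq2 the share of all genes was 0.00477% for burn against sham, 0.00953% for excision against sham and 0.326% for burn against excision. For burn against sham 3 members had an unadjusted p under 0.05, against 4.27% of all genes, and 56 of 80 log2 fold changes were above 0, with a median of 0.088 against 0.0050 over all genes. Kcnd2, the pore of the dendritic transient current, had 0.27 ± 0.11 (adjusted p = 0.884), and Kcne2 had -1.77 ± 0.79 (adjusted p = 0.884), where 1 sham library at 1.59 CPM stood above the rest. Excision against sham gave 3 members under an unadjusted p of 0.05, against 5.25%, with Kcnk15 (1.60), Kcng3 (0.84) and Kcnf1 (0.27) at the smallest p-values. For Kcnk15 no sham library reached the minimum of the count filter. Burn against excision gave 12 such members, against 7.89% of all genes, and the smallest p belonged to Kcnk1 (0.25 ± 0.09, adjusted p = 0.596), followed by Kcnc4 (-0.32 ± 0.12) and Kcng1 (-0.73 ± 0.28).

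The burn effect in the hippocampus minus that in the frontal cortex was called for 0 of 80 members in both tools, against 0% of all genes in each. At an unadjusted p under 0.05 there were 21 of 80 members, or 26.2%, against 8.55% of all 21610 genes, a description with no test of the share. The smallest p belonged to Kcnj11 (-0.39 ± 0.12, adjusted p = 0.307), with log2 fold changes after burn that were higher in the frontal cortex. Kcnma1, the large conductance channel, had -0.28 ± 0.10 (adjusted p = 0.416), Kcna5 had 1.01 ± 0.37 (adjusted p = 0.422) and Kcnip1 had 0.38 ± 0.14 (adjusted p = 0.425). The frontal cortex part of these values includes the batch 1 burn libraries described above.

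Other genes of membrane excitability were read in the same fits, in lists by function. For burn against sham in the hippocampus, 0 of 11 voltage-gated sodium channel genes, 0 of 5 HCN channel genes, 0 of 17 tested partners of potassium channels and 0 of 8 potassium pumps and cotransporters were called, and 1 of 18 voltage-gated calcium channel genes, Cacna1g, fell (-0.27 ± 0.06, adjusted p = 0.0292). Of all genes, 1.03% were called in that contrast. None of the listed genes was called for burn against sham in the frontal cortex, against 0.28% of all genes. Between regions in sham libraries, 20.1% of all genes were called lower in the hippocampus and 20.8% higher. Of 11 sodium channel genes 4 were called lower and 3 higher, and of 18 calcium channel genes 9 lower and 3 higher. Of 17 partners 8 were called lower and 3 higher. Of 5 HCN channel genes 3 were called lower and 0 higher, and of 8 pump and cotransporter genes 3 lower and 0 higher. No list was tested against the share of all genes.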

How the data were processed

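Total RNA of 71 libraries was sequenced as single-end reads of 100 bp, per the labels' protocols. The authors deposited whole-number counts per gene, made from the reads with tools that include FastQC 0.11.3, fastp and STAR on build GRCm38, per the submitters' processing notes, which also name DESeq2 1.24.0. For the counting, the annotation and the use of strand were not given in the sources used here. Gene symbols, positions and exon lengths came from GENCODE mouse release M21, which matched 52083 of 55416 identifiers, and identifiers without a match held 0.847% of counts. Exons of 25 members overlap a gene on the opposite strand.

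Each region was fitted over all genes with edgeR 4.0.16 in R 4.3.3 (TMM, filterByExpr, quasi-likelihood test), with batch as a term in hippocampus and frontal cortex, and Benjamini-Hochberg adjusted p under 0.05 was called. Hippocampus against frontal cortex used sham libraries, and differences of the burn effect were interaction terms. Contrasts within a region share libraries. For DESeq2, each share of all genes counts only the genes to which it gave an adjusted p. Levels are CPM, TMM-scaled over all libraries. Within groups, 270 library pairs were compared and 0 were identical (lowest chi-square per degree of freedom 4.1). The fit of burn against sham in the hippocampus was tested on simulated counts that held no batch effect. The other fits were not tested in this way.

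Named were Kcna4 throughout, every called member up to 15 a direction, or the 5 smallest p where fewer than 5 were called, for the regions the 12 largest differences a direction with at least 1 CPM, and each subfamily's highest member per kb. Some members under this rule are not reported here. The members and lists were chosen with earlier results of these data known. Alternatives were DESeq2 1.42.0, its size factors, no count filter, fits of each batch alone, without the batch term or with a replicate block, the label conflicts left out or read from titles, libraries under 10 M left out, TEC share as a covariate and a library number block for the interaction of regions (both added after the data were seen), and each library left out in turn. Depth limits low members, and intervals here cover the spread between libraries.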

Additional observations from a re-analysis of the deposited data

Results flagged for a closer look

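Among 88 pairs of a named potassium channel gene and a group, 5 had a library far from the rest of its group by Dixon's gap ratio, which chance flags in about 1 in 20 groups. Kcnb2 was at 28.6 CPM in hippocampus excision replicate 6, with 15.6 CPM in the next library, and Kcnh5 was at 5.77 CPM in the same library, with 3.02 CPM next. That library also had the highest Kcna4 level of the hippocampus (32.0 CPM), and its fast-spiking interneuron markers summed to 565 CPM, at the top of the excision group (342 to 565 CPM). Kcnj14 was at 3.45 CPM in hippocampus excision replicate 4, with 2.56 CPM next. Kcnj10 was at 288 CPM in frontal cortex excision replicate 10, with 202 CPM next. There the fast-spiking interneuron markers summed to 1249 CPM against 379 to 1249 CPM in that group. Gad1, which is in that list, reached 474 CPM in the hippocampus and 1131 CPM in the frontal cortex. Pvalb did not pass 64.5 and 48.7 CPM, so these sums do not single out fast-spiking cells. Kcne2 was at 1.59 CPM in piriform cortex sham replicate 1, with 0.187 CPM next, and the choroid plexus markers of that library summed to 402 CPM, at the top of the 160 to 402 CPM of the group.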

How the results depend on the processing

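Of 2608 alternative values, 758 came from other settings and 1850 from leaving out 1 library. Of these, 720 and 1814 were rated the same. Log2 values so rated kept their direction and their side of the threshold, and counts of called genes equalled or stayed close to the main count. For the hippocampus, burn against sham, the count of potassium channel genes called was 1, and it was 2 in batch 1 alone and 0 in batch 2 alone, without the batch term and with the TEC share as a covariate, where the log2 fold change of Kcna4 was 0.51 (batch 2), 0.52 (no batch term, adjusted p = 0.0572) and 0.50 (TEC share). With 1 library left out the count was 0 to 1 and the Kcna4 value 0.47 to 0.58, while Kcna4 ranged from 0.28 to 0.41 for burn against excision and from 0.12 to 0.26 for excision against sham. For the frontal cortex the count of 0 became 2 with DESeq2 and 9 in batch 1 alone for burn against sham, and 8 in batch 1 alone for burn against excision, with 0 to 2 in either when 1 library was left out. The batch interaction there had 1 call in DESeq2. The count between regions was 46 to 52 with 1 library left out. The causes were not tested.

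Values near 0 turned sign: Kcna4 for burn against sham in the frontal cortex (0.043 in batch 2, and -0.11 to 0.021 with 1 library left out, positive at 0.021, 0.0091 and 0.011 without burn replicate 4, sham replicate 5 and burn replicate 6), and in the piriform cortex (-0.022 both without the label conflict and with titles, and -0.15 to 0.22 with 1 library left out, at -0.056, -0.090, -0.022, -0.020 and -0.15 without burn replicates 1 and 5 and sham replicates 2, 4 and 5). Kcna4 for excision against sham in the piriform cortex was -0.020 without sham replicate 5 (-0.020 to 0.335 over all such fits), Kcnj2 for excision against sham in the hippocampus was -0.0094 in batch 1, and Kcnc4 between regions was -0.0145 in excision libraries.

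The labels do not say whether equal numbers pair libraries, and the correlations did not settle it. Title numbers were used within a region and library numbers of the deposited columns between regions. Same-numbered pairs correlated above 0.1 in 13 of 28 cases in the hippocampus, 10 of 24 in the frontal cortex and 4 of 11 in the piriform cortex. For different-numbered pairs it was 36 of 112, 35 of 84 and 17 of 45. Between regions it was 3 of 7 against 9 of 28 in sham, and 13 of 27 against 30 of 108 over all treatments (median correlations 0.0925 and -0.0511). With the replicate block, Kcna4 in the hippocampus was 0.55 (adjusted p = 0.0426) with 1 gene called, 45 were called between regions, and the other counts stayed at 0, including that for the difference of the burn effect between regions with library number as the block, a fit added after the data were seen. Size factors from DESeq2 moved the median of all genes by at most 0.015 on the log2 scale in any contrast. Depth limits the precision for the 18 genes under 1 CPM in every region.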
